A study of Apis mellifera with 2 samples.

Results

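The let-7 complex consists of the microRNAs (miRNAs) let-7, miR-100 and miR-125, and its counts were compared between honey bee larvae reared as queens and as workers. Its 3 members were the entries named exactly ame-let-7, ame-miR-100 and ame-miR-125 in the deposited count table, out of 53 named miRNAs and 692 entries in all. Predicted entries that carry the same numbers are other entries and were not counted as members, among them predicted entry 100 with 7 queen and 13 worker counts.

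miRNAs are short RNAs that pair with messenger RNAs, mainly through the bases near their 5′ end, and lower the output of those messages. let-7 and lin-4, the nematode counterpart of miR-125, were found in Caenorhabditis elegans as switches that move cells from one larval stage to the next. In Drosophila the 3 miRNAs are cut from a single primary transcript, which appears at the end of larval life under the steroid moulting hormone ecdysone. Having 1 transcript does not fix the amounts of the mature miRNAs, since each is cut out, loaded and degraded separately. In the RefSeq annotation of the honey bee assembly Amel_HAv3.1 the genes Mir125, Mirlet7 and Mir100 followed each other in that order with 0 annotated genes between them. The protein-coding gene Ets97D-like lay next to Mir125, and a long non-coding RNA gene, LOC113218942, lay next to Mir100. Whether the 3 honey bee miRNAs share a transcript was not measured.

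The larvae were Apis mellifera ligustica of Zhenongda No.1, a stock bred for a high royal jelly yield, from 3 colonies. Queen-destined larvae were moved into queen cups less than 18 h after hatching, 150 per colony, and worker larvae stayed behind. On each of days 4, 5 and 6, between 73 and 138 h after hatching, 40 to 60 larvae per caste and colony were sampled. RNA of all 3 days was pooled into 1 queen library and 1 worker library, and the fraction of 18 to 30 nt was sequenced. No value by day, colony or tissue was obtained. Because whole larvae were pooled, more cells of a type cannot be told apart from more of a miRNA per cell, nor a level from the day at which it is reached.

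Listed counts summed to 2658259 for queens and 2318675 for workers, so that 1 count was worth 0.376 and 0.431 counts per 1000000 listed counts (CPM). With 1 library per caste there was no replicate spread, and no p-values were computed. Intervals are at the 95% level. They describe counting error alone and take each read as an independent molecule, which PCR copies are not. The differences described are between these 2 libraries. Ligation and PCR favour some sequences, so a ratio of counts between different miRNAs is not their molar ratio. A change of that ratio from one library to the other is free of such a preference only if it was the same in both libraries, which was not measured.

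The first comparison asked what share of the counts each member held in either library. Of the members, let-7 had the most counts in both libraries, miR-100 was intermediate and miR-125 had the fewest. let-7 (ame-let-7) had 37658 counts in queens and 19684 in workers. These were 1.42% of the listed counts of queens (1.40 to 1.43) and 0.849% of those of workers (0.837 to 0.861). let-7, which in Drosophila is needed for the remodelling of nerve and muscle at metamorphosis, thus held a larger share of the queen library.

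miR-100 (ame-miR-100) had 12322 counts in queens and 11887 in workers. On the share scale this was 0.464% (0.455 to 0.472) in queens and 0.513% (0.504 to 0.522) in workers. miR-100 belongs to the old miR-10 family of animal miRNAs. Its share of listed counts was slightly larger in the worker library, a direction that turned with 3 other scalings. miR-125 (ame-miR-125) had 705 counts in queens and 718 in workers, or 0.0265% (0.0246 to 0.0286) and 0.0310% (0.0287 to 0.0333). miR-125, which acts with let-7 on the transcription factor gene chinmo in the Drosophila brain, was thus nearly equal in raw counts. As a share it was slightly larger in workers, with intervals that fell just short of meeting. This direction turned with 3 other scalings.

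Among the 53 named miRNAs let-7 was the 8th in the queen library and the 12th in the worker library. miR-276 stood directly above it in queens and miR-8 directly below, while in workers it lay between miR-993 and miR-263. miR-100 took place 14 in both libraries, between miR-993 and miR-iab-4 in queens and between miR-263 and miR-190 in workers. miR-125 took place 32 in queens, between miR-7 and miR-92a, and place 33 in workers, between miR-10 and miR-315. Positions within a library do not depend on how libraries are scaled to each other.

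let-7 changed places with 4 named miRNAs: miR-8, miR-71, miR-283 and miR-993 each had fewer counts than let-7 in queens and more in workers. miR-8, for example, had 33321 counts in queens and 33560 in workers. For let-7 the order against its neighbours therefore differed between castes. Such moves were not particular to let-7. miR-375 went from place 12 in queens to 22 in workers, and miR-263 from 22 to 13. miR-71 and miR-283 were named here after their values were seen. miR-100 changed places with miR-263 and miR-375, and miR-125 with miR-10, miR-124 and miR-315. miR-375, which had 18879 counts in queens and 5784 in workers, fell below miR-100 in the worker library, and miR-263, with 3222 and 15091, rose above it; miR-124 and miR-375 were likewise named after their values were seen.

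**Figure D1:**
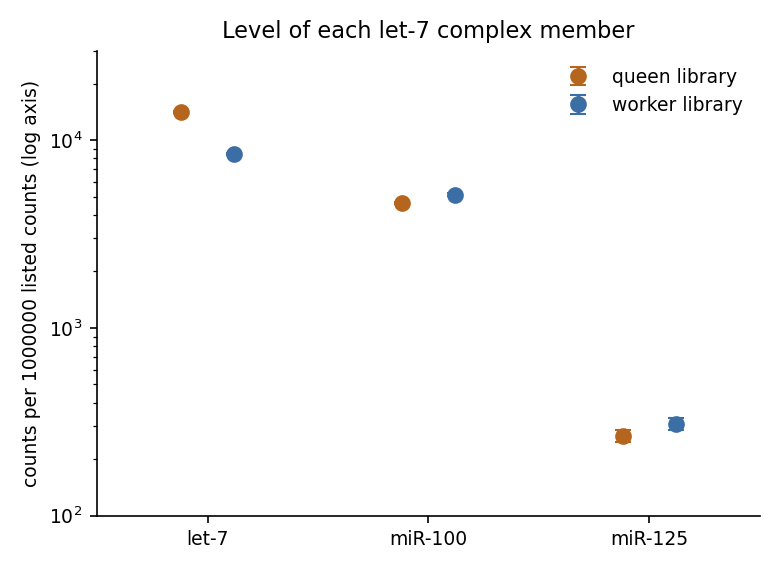
Level of let-7, miR-100 and miR-125 in the queen and the worker library, in counts per 1000000 listed counts on a log axis, 1 point per library; bars are 95% Clopper-Pearson intervals for counting error and are mostly smaller than the points. let-7 stands at 14166 in queens and 8489 in workers, while the 2 points of miR-100 and those of miR-125 lie close together.

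Together the 3 members held 1.91% of the queen counts (1.89 to 1.92) and 1.39% of the worker counts (1.38 to 1.41). The combined level was 19067 CPM in queens and 13926 CPM in workers, a difference of 5141 CPM. let-7 alone differed by 5677 CPM, more than the sum, because miR-100 was lower in queens by 491 CPM and miR-125 by 44.4 CPM on this scaling. Both directions turned with 3 of the other scalings described later. On the scale of listed counts, the larger share of the complex in the queen library therefore lay in let-7 and not in its partners.

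The make-up of the complex differed accordingly. let-7 made up 74.3% of the complex's counts in queens (73.9 to 74.7) and 61.0% in workers (60.4 to 61.5). miR-100 made up 24.3% (23.9 to 24.7) in queens and 36.8% (36.3 to 37.3) in workers. miR-125 made up 1.39% (1.29 to 1.497) in queens and 2.22% (2.07 to 2.39) in workers. The intervals cover counting error alone. How often such intervals of other named miRNAs are separate between the libraries was not counted, so nothing particular to the complex is read from their separation. The parts add up to the whole, so a larger part of let-7 alone lowers the parts of both others.

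The second comparison took the ratio of one member to another within each library, which no scaling of the libraries can alter. Relative to either partner, let-7 was nearly 2-fold higher in queens than in workers, and the partners kept nearly the same ratio to each other. There were 3.06 let-7 counts per miR-100 count in queens (2.99 to 3.12) and 1.66 in workers (1.62 to 1.69). The queen ratio was 1.85 times the worker ratio (1.79 to 1.90), a log2 change of 0.88 (0.84 to 0.93). At the queen ratio, the 11887 miR-100 counts of the worker library would go with 36329 let-7 counts, where 19684 were counted.

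let-7 had 53.4 counts per miR-125 count in queens (49.6 to 57.6) and 27.4 in workers (25.4 to 29.6). This was a change of 1.95 times (1.75 to 2.17), or 0.96 on the log2 scale (0.81 to 1.12). Both let-7 ratios thus moved the same way and by similar amounts, but they share the let-7 counts and are not independent of each other.

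There were 17.5 miR-100 counts per miR-125 count in queens (16.2 to 18.9) and 16.6 in workers (15.4 to 17.9). The change was 1.06 times with an interval of 0.947 to 1.18, which includes 1. Counting error alone therefore leaves room for a change of up to 1.18 times in favour of queens or down to 0.947 times, and a difference between the castes was not detectable at the depth of miR-125. In the plot of ratios the queen and worker points part for both let-7 ratios and nearly meet for miR-100 against miR-125.

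**Figure D2:**
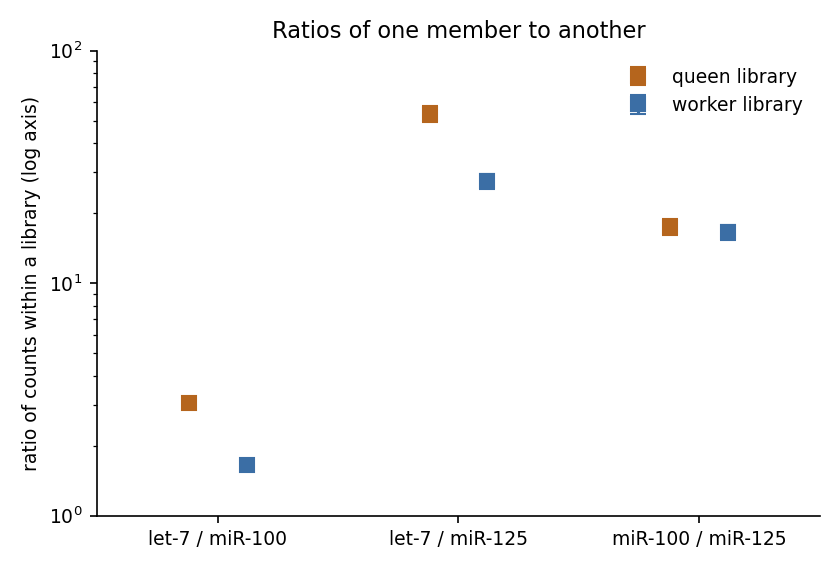
Ratio of counts of one member to another within the queen and the worker library, on a log axis, 1 point per library; bars are exact 95% intervals for counting error, mostly smaller than the points. let-7 to miR-100 was 3.06 in queens and 1.66 in workers, let-7 to miR-125 was 53.4 and 27.4, and miR-100 to miR-125 was 17.5 and 16.6.

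How far such ratios moved was set against the other named miRNAs. Of the 1176 pairs that the 49 named miRNAs with at least 20 counts over both libraries can form, 39.8% changed their ratio at least 2-fold between castes, and 0 of the 3 pairs of members did. The shift of let-7 against miR-100 was matched or passed by 44.8% of the 1173 pairs other than the members' own. For let-7 against miR-125 this was 41.4%. Shifts of the size seen for let-7 were thus common among pairs of named miRNAs, whose median change was 0.79 on the log2 scale. The pair of miR-100 and miR-125 lay at the other end, since 94.9% of the other pairs changed at least as much. That place rests on its point value of 0.08 on the log2 scale, with an interval for counting error of −0.08 to 0.23. Pairs share miRNAs with each other, so these percentages describe the 2 libraries.

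The RefSeq annotation placed 13 pairs of assessed named miRNAs within 10 kb of each other, the members' 3 pairs included. Of the 10 others, 3 changed at least as much as let-7 against either partner. These were miR-13a with miR-13b, miR-13a with miR-71, and miR-277 with miR-34, at 1.59, 1.15 and 0.98 on the log2 scale. miR-13a had only 67 queen and 65 worker counts, and the sources used here do not say how reads shared by miR-13a, miR-13b and miR-2 were assigned. The pair with a change smaller than that of miR-100 and miR-125 was miR-279 with miR-996, at 0.01. At least 2-fold changes were seen in 15.4% of the 13 neighbouring pairs, namely miR-13a with miR-13b and miR-13a with miR-71. Both of these rest on the low counts of miR-13a. The neighbouring pairs outside the complex were named after their values were seen.

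**Figure D3:**
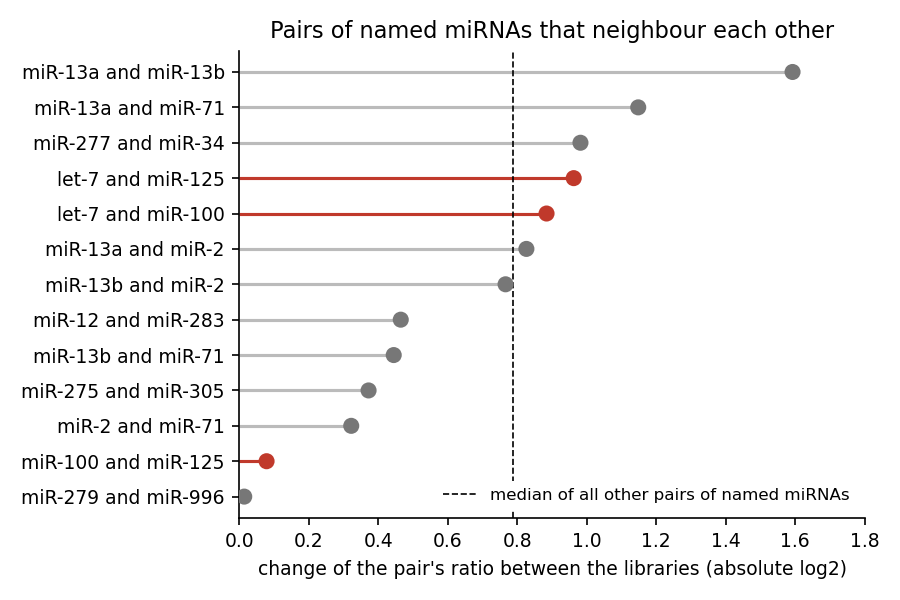
Change of the count ratio between the queen and the worker library, as an absolute log2 value, for the 13 pairs of assessed named miRNAs that lie within 10 kb of each other in the RefSeq annotation; red marks the members' pairs, and the dashed line the median of all 1173 other pairs, 0.79. let-7 with miR-125 and let-7 with miR-100 lie at 0.96 and 0.88, beyond the line, and miR-100 with miR-125 lies at 0.08.

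The third comparison was of each member between the castes with the libraries scaled to their totals. The ratio of queen to worker CPM was 1.67 for let-7 (1.64 to 1.70), a log2 ratio of 0.74 (0.71 to 0.76). It was 0.904 for miR-100 (0.882 to 0.927) and 0.856 for miR-125 (0.771 to 0.952). On the log2 scale these were −0.15 (−0.18 to −0.11) and −0.22 (−0.38 to −0.07), and both signs turned positive with each of 3 other scalings that rest less on the leading miRNAs. A miRNA was called at a ratio of at least 2 in either direction with an interval that excludes 1. By this rule 0 of 3 members were called, where 2.04% of the 49 assessed named miRNAs were called higher in queens and 24.5% higher in workers.

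Those 3 scalings were TMM factors (a trimmed mean of log ratios), the median of ratios, and totals without the 5 most abundant miRNAs, which were miR-275, miR-1, miR-184, miR-305 and miR-996. They raised every log2 ratio by 0.43, 0.46 and 0.52. let-7 was then 2.24-fold, 2.30-fold and 2.39-fold higher in queens, past the 2-fold threshold, where 8.16%, 8.16% and 10.2% of the named miRNAs were called in that direction. miR-100 stood at 1.21, 1.24 and 1.30 times the worker level and miR-125 at 1.15, 1.18 and 1.23 times, so neither was called, where 18.4% of the named miRNAs were called higher in workers with each of the 3. The direction for let-7 was the same with every scaling run, and the directions for miR-100 and miR-125 were not. Which scaling is right cannot be told from 1 library per caste.

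Relative to the median named miRNA, which had a log2 ratio of −0.36, the values do not depend on the scaling. let-7 lay 1.10 above that median, miR-100 0.21 above and miR-125 0.14 above. In the order of the 49 ratios from queen to worker, let-7 was the 2nd, miR-100 the 16th and miR-125 the 20th. let-7 was higher in queens relative to 47 of the 48 other assessed named miRNAs, the exception being miR-375. For 45 of them the interval of the change excluded 1, by a large-count approximation. For miR-100 the change favoured queens against 33 of 48, with an interval excluding 1 for 26, and workers against 15, with such an interval for 13. For miR-125 it favoured queens against 29, 21 of them with an interval excluding 1, and workers against 19, 12 of them with such an interval. The counts by direction restate the places in that order. An interval excluding 1 was common, since only 9 of 48 included 1 even for miR-100. The share of all pairs of named miRNAs with such an interval was not counted. By its place in the order, let-7 stood near the queen end of the named miRNAs, and both partners stood near the middle.

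**Figure D4:**
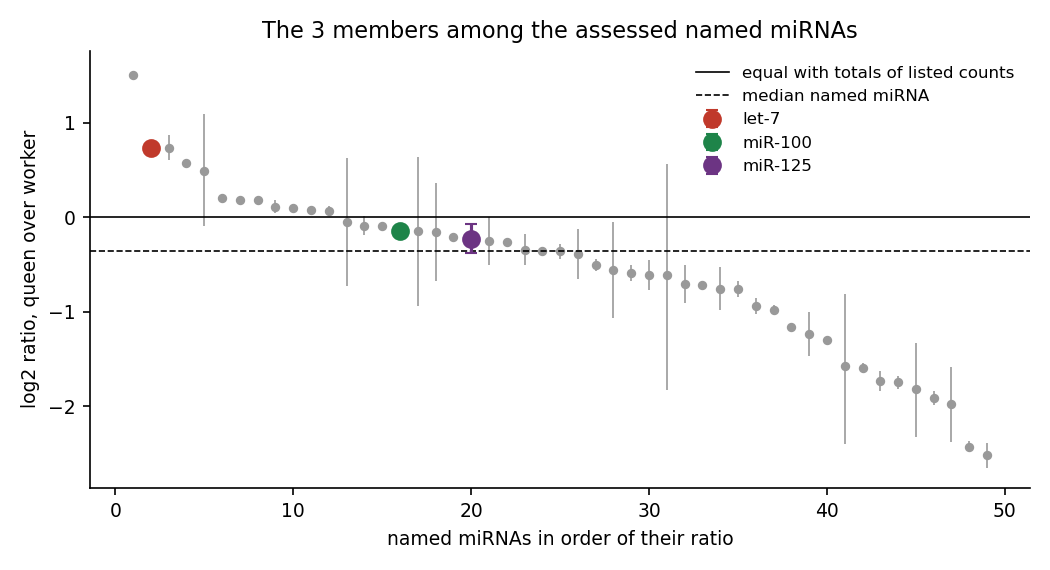
log2 ratio of queen over worker for the 49 named miRNAs with at least 20 counts, in order, with libraries scaled to their totals; bars are exact 95% intervals for counting error, the solid line marks equal levels and the dashed line the median named miRNA at −0.36. let-7 is the 2nd point at 0.74, whereas miR-100 at −0.15 and miR-125 at −0.22 lie between the lines, on the worker side of 0 with this scaling and on the queen side with TMM, the median of ratios or totals without the 5 leading miRNAs.

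The named miRNAs with the ratios nearest to each member were found over the 2 libraries by the absolute difference of log2 ratios, among 45 with at least 100 counts. Nearest to let-7 were miR-315 at 0.74 (0.60 to 0.87), miR-305 at 0.58 (0.57 to 0.59) and miR-210 at 0.49 (−0.09 to 1.09). let-7 and miR-315 did not differ beyond counting error, whereas miR-305 lay 0.16 lower and miR-210 rested on 66 and 41 counts. The miRNAs nearest to miR-100 were miR-13a at −0.15 (−0.67 to 0.36), miR-317 at −0.09 (−0.13 to −0.04) and miR-79 at −0.09 (−0.18 to 0.01). miR-8 at −0.21, miR-34 at −0.25 and miR-1 at −0.26 were nearest to miR-125, within 0.04 of it. With only 2 libraries a similar ratio is shared by many miRNAs, and all of these values except those near let-7 changed sign with the 3 other scalings.

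Other miRNAs tied to ecdysone were taken as a list of 6, all assessed. It held miR-34 and miR-8, which fall in Drosophila when ecdysone rises, miR-14, which acts on the ecdysone receptor in Drosophila, and bantam, which acts on ecdysone production there. It also held miR-281, which acts on an ecdysone receptor isoform in the silkworm, and miR-275, which is tied to egg development in mosquitoes. miR-281 was called higher in workers, at a log2 ratio of −1.58 (−2.40 to −0.81) on 20 queen and 52 worker counts, so that 1 of 6 was called in that direction and 0 in the other. Over all 49 assessed named miRNAs these shares were 24.5% and 2.04%, so the list's count lay near the background, and with a minimum of 100 counts miR-281 was not assessed. The list's median was −0.38, beside −0.36 for all assessed named miRNAs.

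Of the members of this list, miR-275 had a log2 ratio of 0.21, miR-8 −0.21, miR-34 −0.25, bantam −0.50 and miR-14 −0.93. let-7, at 0.74, lay above all 6, as it did above 47 of the 48 other assessed named miRNAs. miR-100 and miR-125 lay between miR-275 and miR-34. With the 3 other scalings the list's median became 0.05, 0.08 and 0.14, and the median of all named miRNAs 0.07, 0.10 and 0.16. The list's median thus lay close to that of all assessed named miRNAs with each of these scalings.

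miR-10 and miR-993, relatives of miR-100 by sequence that lie in the Hox gene cluster of insects, formed a second list. miR-10 had 564 queen and 752 worker counts and a log2 ratio of −0.61 (−0.77 to −0.45), and miR-993 had 16106 and 23085 counts and −0.72 (−0.75 to −0.69). Neither was called, beside 24.5% of the assessed named miRNAs called higher in workers and 2.04% in queens, and nothing is read from a count of 0 of 2. Both lay below the interval of miR-100, which is independent of scaling. The median of both stayed negative with the 3 other scalings, at −0.24, −0.20 and −0.14, where miR-100 turned positive. The sources used here do not say how reads that fit both miR-100 and a relative were assigned.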

How the data were processed

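The data were counts per miRNA in 1 queen and 1 worker library of small RNA. Per the labels' protocols, RNA was extracted with Trizol, 18 to 30 nt RNA was cut from a gel, a 5′ and then a 3′ adapter were ligated, and the RT-PCR product was sequenced on a Solexa instrument. The whole-number counts were used as deposited by the authors; the table's 242 further columns were empty. The sources used here name no aligner, miRNA caller, genome build or annotation, and do not say how reads with several matches were handled. Arms and sequences of the miRNAs were not analysed here.

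Levels are counts per 1000000 of the 2658259 queen and 2318675 worker listed counts. Shares carry Clopper-Pearson intervals, caste ratios exact conditional intervals, and changes of a ratio of members the exact conditional interval of a 2 by 2 table; comparisons with all other named miRNAs used a log-normal interval. Entries were assessed from 20 summed counts upwards and called at a ratio of at least 2. Alternatives were edgeR 4.0.16 TMM and DESeq2 1.42.0 median-of-ratios factors (used for scaling, with no tests), 3 other totals, other minimum counts, other ratios and a 99% interval. Calls and intervals were tried on simulated data with counting error alone. Such data cannot test replicate spread, PCR copies or the choice of scaling. Python 3.11.15, scipy 1.17.1 and R 4.3.3 were used. All 53 named miRNAs matched RefSeq genes of Amel_HAv3.1, used for names and neighbourhood. The text names the members, the lists, the 3 miRNAs nearest to each member by ratio, and those next to it in rank. Members and lists were chosen with earlier results of these data known.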

Additional observations from a re-analysis of the deposited data

How the results depend on the processing

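The changes in the ratios between members do not depend on scaling. Adding 0.5 counts left them within counting error, as counts of 705 and more require. A 99% interval cannot move a value. It still excluded 1 for let-7 to miR-100 (1.77 to 1.92) and let-7 to miR-125 (1.69 to 2.24). For miR-100 to miR-125 it included 1 (0.916 to 1.22). The log2 caste ratio of let-7 (0.74) became 1.16, 1.20 and 1.26 with TMM, the median of ratios and totals without the 5 leading miRNAs. With the same settings miR-100 (−0.15) became 0.28, 0.31 and 0.38, miR-125 (−0.22) became 0.20, 0.24 and 0.30, the median of the ecdysone-linked list (−0.38) became 0.049, 0.084 and 0.14, and that of the relatives of miR-100 (−0.66) became −0.24, −0.20 and −0.14. These moves are the constant that each scaling adds to every log2 ratio. Totals of named miRNAs, or without the 3 members, left each member's ratio within its interval. The share of the complex, 1.91% in queens and 1.39% in workers, became 11.4% and 5.79% without the 5 leading miRNAs, 1.97% and 1.46% of named counts, and 1.94% and 1.41% relative to all other counts, as the smaller totals require. Named miRNAs called higher in queens (1) became 4, 4 and 5 with the 3 scalings, 3 at a ratio of 1.5 and 0 at 4; those called higher in workers (12) became 20 at 1.5 and 2 at 4. Pairs changed at least 1.5-fold made up 60.3%. No paired analysis was possible because there is just 1 library for either caste, and for the same reason none could be left out. Depth limits miR-125, with 705 and 718 counts.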
